A study of Homo sapiens with 6 samples.

Results

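Long noncoding RNAs whose expression is tied to the prostate or to luminal breast cells were followed, together with a pair that most cells make, in RNA-seq libraries labelled as T47D. The members were the 10 genes PCGEM1, PCAT1, PCAT14, SCHLAP1, DRAIC, ARLNC1, DSCAM-AS1, HOTAIR, MALAT1 and NEAT1, chosen by name from 17596 annotated lncRNA genes and 61279 genes in all. T47D is an established breast cancer line that carries estrogen and progesterone receptors and a PIK3CA mutation. The labels give 3 libraries of cells exposed to MI-503 (4 μmol/L, 24 hours) and 3 of cells exposed over the same time to the vehicle DMSO. All 6 were labelled as wild type, grown in RPMI with serum, and as biological replicates of 1 line. MI-503 binds menin in the pocket where MLL1, a histone methyltransferase, would dock, and the comparison asked how gene expression differed after this inhibition.

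Long noncoding RNAs are transcribed, often spliced and polyadenylated like mRNAs, but are not translated into a known protein. Many are made in a single lineage, because nuclear receptors and pioneer factors of that lineage drive their promoters, and several are used as markers of tumor origin for that reason. PCGEM1, PCAT1, PCAT14, SCHLAP1, DRAIC and ARLNC1 were described in prostate cancer, DSCAM-AS1 in estrogen receptor-positive breast cancer, and HOTAIR in the HOXC cluster. MALAT1 and NEAT1 build the surroundings of nuclear speckles and paraspeckles and are abundant in most cell types.

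The libraries labelled DMSO went against their label. The marker lists were drawn up with earlier results of these data known. Each listed marker of luminal breast cells was higher under the MI-503 label (8 of 8 genes). Their summed level was 8862 to 11685 CPM (reads scaled to the size of each library) in the libraries labelled MI-503, against 174 to 296 CPM in those labelled DMSO. GATA3, a luminal breast factor, had 1423, 1443 and 1412 CPM in the libraries labelled MI-503, against 0, 0.580 and 0 CPM in those labelled DMSO. ESR1, the estrogen receptor, had 209, 240 and 295 CPM under the MI-503 label, against 0, 0.193 and 0 CPM under the DMSO label. All 8 prostate markers were lower under the MI-503 label, with a summed level of 42.2 to 46.4 CPM in the libraries labelled MI-503 against 6138 to 7049 CPM in those labelled DMSO. KLK3, which encodes prostate-specific antigen, had no reads in any library labelled MI-503 and 3757, 3683 and 3669 CPM in the libraries labelled DMSO. Of 5 fibroblast and mesenchymal markers only COL1A1 passed the test, and was higher, with sums of 77.8 to 120 CPM under the MI-503 label and 27.4 to 53.0 CPM under the DMSO label. The blood cell markers PTPRC and CD3E were at 0 in all libraries. All 3 libraries labelled DMSO shared this marker pattern, so no member can be given without them, and the treatment cannot be told apart from the difference between these sets of libraries. The libraries are therefore named by label throughout. Total estimated reads ran from 17404736 to 22168525 a library, with a mitochondrial share of 2.84% to 5.34% under the MI-503 label and 1.38% to 7.18% under the DMSO label.

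Several members can be seen only through spliced transcripts, and the sequence across a splice junction is what sets such an RNA apart from the DNA of its locus. The junctions below are shown for the leading transcripts of 5 members, as 60 bases of the GENCODE 44 transcript written 5′ to 3′. The capitals mark the 10 bases on each side of the junction.
HOTAIR-201, exon 1 to exon 2: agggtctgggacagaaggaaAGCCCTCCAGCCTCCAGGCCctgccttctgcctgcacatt
SCHLAP1-201, exon 1 to exon 2: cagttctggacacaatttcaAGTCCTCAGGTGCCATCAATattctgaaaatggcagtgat
DRAIC-221, exon 1 to exon 2: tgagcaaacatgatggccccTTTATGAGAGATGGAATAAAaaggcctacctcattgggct
ARLNC1-230, exon 1 to exon 2: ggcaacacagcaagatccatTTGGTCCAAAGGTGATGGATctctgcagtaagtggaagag
NEAT1-207, exon 1 to exon 2: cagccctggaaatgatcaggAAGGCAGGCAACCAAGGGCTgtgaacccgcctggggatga
On GRCh38 the introns skipped at these junctions were 6141 bases long in HOTAIR-201, 32154 in SCHLAP1-201, 1335 in DRAIC-221, 15699 in ARLNC1-230 and 75 in NEAT1-207. These letters are reference sequence, since the files give reads per transcript and no reads.

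Of the 10 lncRNAs, 3 were higher (DSCAM-AS1, HOTAIR and MALAT1) and 5 were lower (PCAT1, PCAT14, SCHLAP1, DRAIC and ARLNC1) under the MI-503 label. NEAT1 did not pass the test and PCGEM1 had too few reads to be tested. The test was edgeR's quasi-likelihood test over 16442 genes, with a call at a Benjamini-Hochberg adjusted p under 0.05. By that rule 31.7% of all genes tested were higher and 31.2% lower, and among the 2343 lncRNA genes tested 20.6% were higher and 37.9% lower. All 8 calls also lay beyond a log2 fold change of 2 in size, a limit that 12.6% of all genes passed upward and 11.7% downward. The median log2 fold change of the 9 members tested was -2.78, and it was the same with SCHLAP1 and PCAT14 set at the bounds given below, while the median of all genes tested was -0.0044. The p-values measure the spread between libraries of each label. In these bulk samples, fewer cells of a type and less RNA per cell cannot be told apart.

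**Figure D1:**
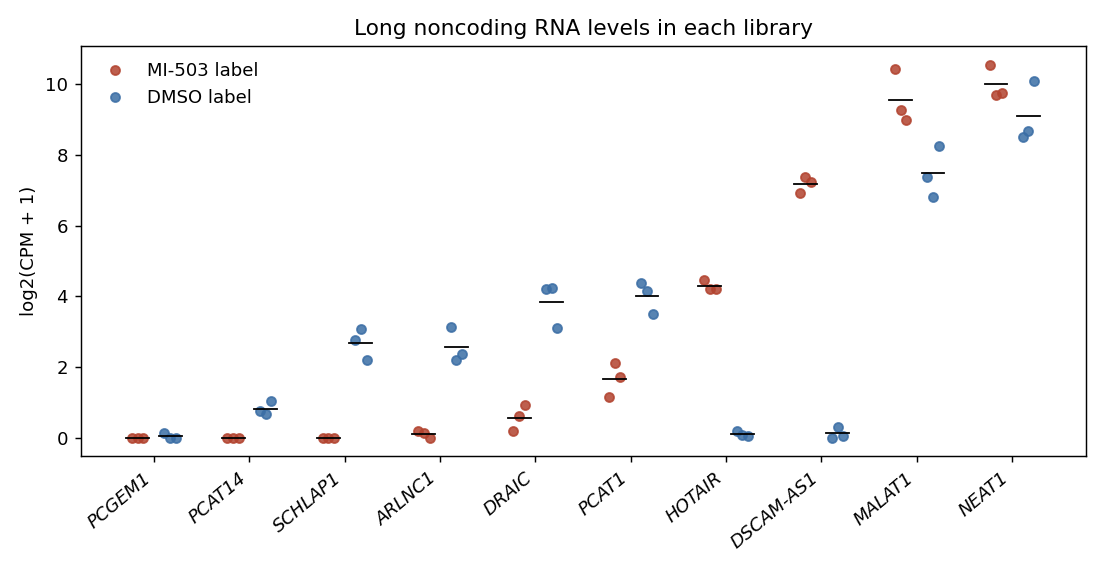
Level of each lncRNA in every library, as log2(CPM + 1) on the vertical axis, with libraries labelled MI-503 in red on the left and those labelled DMSO in blue on the right of each gene, and a bar at the mean of each label. PCAT14, SCHLAP1, ARLNC1, DRAIC and PCAT1 lie lower under the MI-503 label, HOTAIR, DSCAM-AS1 and MALAT1 lie higher, and the 2 sets of points overlap for NEAT1 and, at 0, for PCGEM1.

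DSCAM-AS1 (ENSG00000235123) lies in an intron of the adhesion molecule gene DSCAM, on the opposite strand, at chr21:40383083-40385358 of GRCh38. It is transcribed under estrogen receptor control in luminal breast cancer and binds the splicing regulator HNRNPL. DSCAM-AS1 had 120, 165 and 150 CPM in the libraries labelled MI-503, against 0, 0.242 and 0.0455 CPM in those labelled DMSO. Only 6 reads in all came from the DMSO label, against 8146 from the MI-503 label. The ratio of pooled CPM was 1556, with a 95% counting interval of 715 to 4242, and the log2 fold change was 10.52 (SE 0.45; edgeR adjusted p = 7.56e-08). Without DMSO replicate 2, which held most of the few reads of that label, the log2 fold change was 12.29.

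The RNA came from 4 annotated transcripts, all with reads in each of the 3 libraries labelled MI-503. DSCAM-AS1-201, of 1185 bases, took 45.4% of the gene's mean TPM (the level of a transcript per length) under the MI-503 label. It had 67.6, 108 and 105 TPM under the MI-503 label, against 0, 0.0724 and 0 TPM under the DMSO label. DSCAM-AS1-203 had 71.0, 84.7 and 82.4 TPM under the MI-503 label, against 0, 0.226 and 0.0710 TPM under the DMSO label. These transcripts therefore had similar levels under the MI-503 label, and neither passed 1 TPM under the DMSO label.

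Protein-coding genes around DSCAM-AS1 were higher under the MI-503 label too. DSCAM itself had 16.9, 16.7 and 22.2 CPM in the libraries labelled MI-503 and no reads in any labelled DMSO, which makes it at least 397-fold higher (edgeR adjusted p = 1.31e-06). The annotated exons of DSCAM and DSCAM-AS1 share 0 bases. PCP4, a calmodulin-binding protein gene 454 kb to the left, had 5.06, 6.74 and 4.93 CPM under the MI-503 label and no reads under the DMSO label. It was at least 121-fold higher (edgeR adjusted p = 1.39e-05). BACE2, a secretase gene 782 kb to the right, had 87.3, 95.5 and 103 CPM under the MI-503 label, against 1.04, 0.725 and 0.364 CPM under the DMSO label (log2 fold change 7.06, edgeR adjusted p = 7.85e-08).

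HOTAIR (ENSG00000228630) is transcribed from the HOXC cluster at chr12:53962308-53974956 of GRCh38, on the strand opposite to the HOXC genes, and is known for contacts with Polycomb complex 2 and with the histone demethylase KDM1A. HOTAIR had 21.0, 17.3 and 17.6 CPM in the libraries labelled MI-503, against 0.136, 0.0484 and 0.0455 CPM in those labelled DMSO. Every library labelled MI-503 was far above every library labelled DMSO, where 5 reads were found in all, against 1061 under the MI-503 label. The ratio of pooled CPM was 243 (95% counting interval 104 to 751), and the log2 fold change was 7.81 (SE 0.39; edgeR adjusted p = 1.86e-07). Without DMSO replicate 1 the log2 fold change was 8.45. HOTAIR-201, a transcript of 2421 bases in 7 exons, held 52.5% of the gene's mean TPM under the MI-503 label, with 10.4, 9.35 and 8.75 TPM, against 0.0887, 0.0291 and 0 TPM under the DMSO label. The shorter HOTAIR-202 had 9.70, 3.24 and 9.96 TPM under the MI-503 label, against 0, 0 and 0.196 TPM under the DMSO label.

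Among the 9 HOXC genes, which pattern the body axis, 6 were higher and 1 was lower under the MI-503 label, and 2 did not pass the test. Over all genes tested 31.7% were higher and 31.2% lower. HOXC11, whose gene body overlaps HOTAIR with 0 shared exonic bases, had 48.9, 40.2 and 43.9 CPM in the libraries labelled MI-503, against 0.0452, 0 and 0 CPM in those labelled DMSO (edgeR adjusted p = 4.38e-08). HOXC10 had 199, 204 and 183 CPM under the MI-503 label, against 0.136, 0.435 and 0 CPM under the DMSO label (log2 fold change 9.99, edgeR adjusted p = 1.15e-07). HOXC8 had 2.39, 1.46 and 2.02 CPM under the MI-503 label, against 0.181, 0.338 and 0.0455 CPM under the DMSO label (log2 fold change 3.35, edgeR adjusted p = 0.0008), so that HOTAIR, HOXC11, HOXC10 and HOXC8 all stayed below 1 CPM in every library labelled DMSO. HOXC12, 3.4 kb to the left of HOTAIR, had 2.24, 3.92 and 3.26 CPM under the MI-503 label, against 3.97, 4.35 and 1.82 CPM under the DMSO label, and did not pass the test (log2 fold change -0.11, edgeR adjusted p = 0.834). HOXC13 was higher (log2 fold change 1.50), as were HOXC9 (0.70) and HOXC4 (3.62). HOXC6 was lower, with 10.1, 8.46 and 7.72 CPM under the MI-503 label, against 27.4, 24.5 and 27.9 CPM under the DMSO label (log2 fold change -1.60, edgeR adjusted p = 6.76e-05). HOXC4, HOXC5 and HOXC6 have overlapping transcripts on 1 strand, so the division of reads between them is uncertain.

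**Figure D2:**
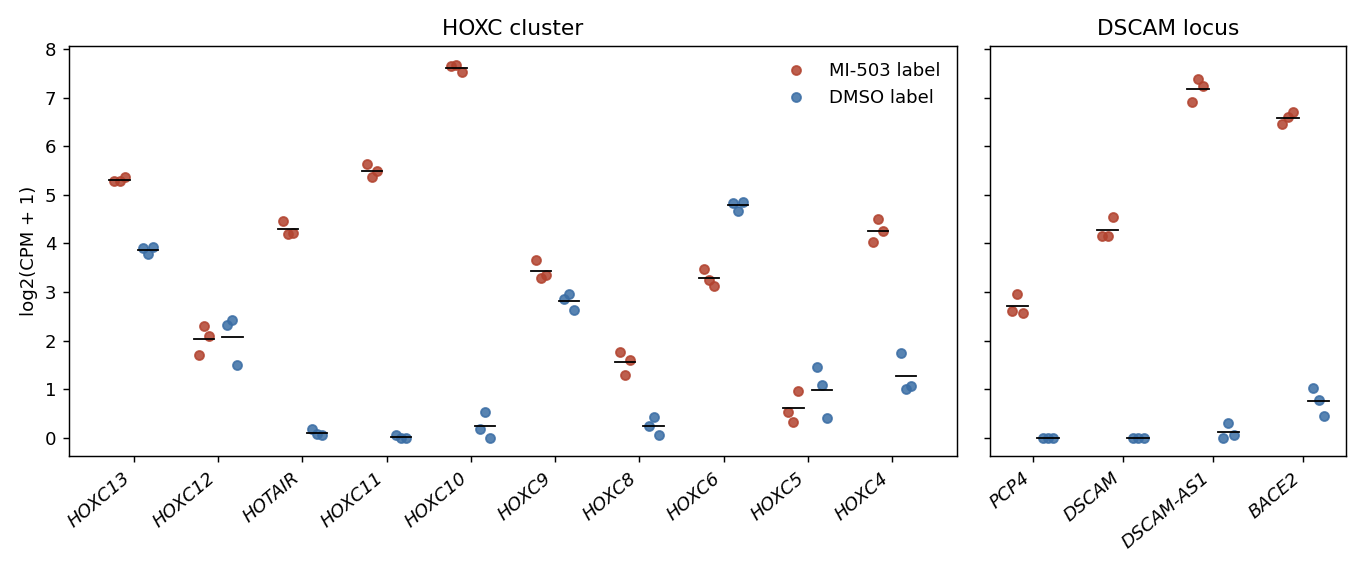
Levels of the HOXC genes with HOTAIR, in their order along the chromosome, and of the genes around DSCAM-AS1, as log2(CPM + 1) in each library, with libraries labelled MI-503 in red on the left and those labelled DMSO in blue on the right of each gene and bars at the means. HOTAIR, HOXC11, HOXC10, HOXC8, PCP4, DSCAM and DSCAM-AS1 are near 0 under the DMSO label, while HOXC12 overlaps between labels and HOXC6 is lower under the MI-503 label.

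Of 8 genes for proteins that HOTAIR is known to contact, 4 were higher and 1 was lower under the MI-503 label, and 3 did not pass the test. With 31.7% of all genes tested higher and 31.2% lower, so short a list says little about these partners. RBBP7, a histone-binding subunit of several chromatin complexes, had 481, 533 and 472 CPM in the libraries labelled MI-503, against 110, 136 and 137 CPM in those labelled DMSO (log2 fold change 1.96, edgeR adjusted p = 4.25e-06). EZH2, the catalytic subunit of Polycomb complex 2, had 57.8, 44.05 and 34.4 CPM under the MI-503 label, against 33.5, 39.7 and 53.0 CPM under the DMSO label, with overlapping groups (edgeR adjusted p = 0.702). The HOXC and partner genes as 1 list counted 10 higher, 2 lower and 5 not past the test, with a median log2 fold change of 0.68.

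SCHLAP1 (ENSG00000281131), at chr2:180692104-180916939 of GRCh38, is known to interfere with the SWI/SNF chromatin remodeling complex in aggressive prostate cancer. SCHLAP1 had no reads in any library labelled MI-503, against 5.83, 7.40 and 3.60 CPM (129, 153 and 79.1 estimated reads) in those labelled DMSO. With 3 reads over the MI-503 label as the floor, SCHLAP1 was at least 105-fold lower under that label (edgeR adjusted p = 3.06e-05). All of these reads were assigned to SCHLAP1-201, whose first junction is shown above. The opposite-strand gene ENSG00000225258, which shares 212 of its exonic bases, had no reads under the MI-503 label and at most 3.9 in a library labelled DMSO. UBE2E3, the ubiquitin-conjugating enzyme gene 50.3 kb to the right, had 12.3, 13.8 and 14.4 CPM under the MI-503 label, against 53.4, 60.4 and 48.0 CPM under the DMSO label (log2 fold change -2.0, edgeR adjusted p = 6.71e-06).

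ARLNC1 (ENSG00000260896), at chr16:80826074-80892682 of GRCh38, is an androgen-induced transcript of prostate cancer cells. ARLNC1 had 0.146, 0.105 and 0 CPM in the libraries labelled MI-503, against 7.81, 3.63 and 4.14 CPM in those labelled DMSO. The 5 reads under the MI-503 label and 338 under the DMSO label gave a level 59.0-fold lower under the MI-503 label (95% counting interval 25.0 to 183), with a log2 fold change of -5.80 (SE 0.67; edgeR adjusted p = 4.93e-05). Which of the 53 annotated transcripts carried the reads differed between libraries of 1 label. ARLNC1-230 had 116, 0 and 72.4 estimated reads in the libraries labelled DMSO, while ARLNC1-238 had 36.5 reads in the library where ARLNC1-230 had 0. The gene ENSG00000286221 shares 2261 exonic bases with ARLNC1 on the same strand. It had 1.0 read in each library labelled MI-503, against 12.5, 59.4 and 39.4 reads in those labelled DMSO, so the division of reads between these genes is uncertain although both were lower.

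CDYL2, a chromodomain gene beside ARLNC1, was lower as well. It had 28.9, 24.5 and 21.4 CPM in the libraries labelled MI-503, against 161, 104 and 94.1 CPM in those labelled DMSO (log2 fold change -2.26, edgeR adjusted p = 2.12e-05). FOXA1, a pioneer factor of luminal breast and prostate cells, had 368, 530 and 515 CPM under the MI-503 label, against 580, 461 and 379 CPM under the DMSO label, and the groups overlapped (log2 fold change -0.01, edgeR adjusted p = 0.980).

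DRAIC (ENSG00000245750) spans chr15:69462921-69843120 of GRCh38 and is known as an inhibitor of invasion that androgen represses in prostate cancer cells. DRAIC had 0.146, 0.523 and 0.890 CPM in the libraries labelled MI-503, against 17.4, 17.9 and 7.56 CPM in those labelled DMSO. The highest library labelled MI-503 stayed below the lowest labelled DMSO (log2 fold change -4.80, SE 0.56; edgeR adjusted p = 5.15e-05). Transcripts that share exonic bases with DRAIC-221, the leading transcript under the DMSO label, held 75.0% of the gene's 28 reads under the MI-503 label and 87.0% of its 921 reads under the DMSO label. Of 73 DRAIC transcripts in the files, 8 had reads under the MI-503 label and 25 under the DMSO label. DRAIC-221 had no reads in any library labelled MI-503, against 92.5, 119 and 36.2 reads in those labelled DMSO. The second transcript there, DRAIC-244, had 0, 127 and 56.2 reads under the DMSO label, so the choice of transcript was not stable between libraries. The flanking gene RPLP1, 6.7 kb to the left, did not pass the test (log2 fold change 0.05, edgeR adjusted p = 0.796). TLE3, 205 kb to the right, was lower (log2 fold change -0.98, edgeR adjusted p = 0.00242).

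PCAT14 (ENSG00000280623), at chr22:23536881-23547797 of GRCh38, comes from an endogenous retrovirus locus and was described as a marker of prostate cancer. PCAT14 had no reads in any library labelled MI-503, against 15, 12 and 23 reads (0.678, 0.580 and 1.05 CPM) in those labelled DMSO. It was at least 14.5-fold lower under the MI-503 label by the floor of 3 reads (edgeR adjusted p = 0.000501). Retroviral copies elsewhere in the genome can be alike, so the assignment of these few reads is uncertain. The flanking gene BCR, a kinase and GTPase regulator, had 81.8, 76.8 and 74.4 CPM under the MI-503 label, against 96.0, 80.6 and 85.4 CPM under the DMSO label, and did not pass the test (log2 fold change -0.17, edgeR adjusted p = 0.324).

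PCGEM1 (ENSG00000227418), at chr2:192749845-192776899 of GRCh38, is a prostate-specific transcript linked to androgen signaling. It had 0 reads in the libraries labelled MI-503 and 2, 0 and 0 reads in those labelled DMSO. No fold can be given at this depth, where 3 reads over a label correspond to 0.0531 CPM for MI-503 and 0.0463 CPM for DMSO. With no filter on low counts the gene entered the test and did not pass (edgeR adjusted p = 0.386). Both flanking genes were lower under the MI-503 label, although SLC39A10 lies 2799 kb away. TMEFF2, a membrane protein gene 555 kb away, had no reads in the libraries labelled MI-503, against 48.3, 43.0 and 23.4 CPM in those labelled DMSO, at least 719-fold lower (edgeR adjusted p = 2.58e-06).

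PCAT1 (ENSG00000253438) covers 863 kb of the 8q24 gene desert at chr8:126556323-127419050 of GRCh38 and is known to promote proliferation and to repress BRCA2 in prostate cancer. PCAT1 had 1.22, 3.29 and 2.31 CPM in the libraries labelled MI-503, against 19.6, 16.8 and 10.4 CPM in those labelled DMSO. The groups did not overlap (log2 fold change -2.78, SE 0.39; edgeR adjusted p = 0.000177). The transcripts that held these reads differed in share between the labels.

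PCAT1-208, a transcript of 1992 bases, had 0 reads in each library labelled MI-503, against 317, 251 and 199 reads in those labelled DMSO. Under the MI-503 label 86.0% of the reads (109.5 of 127.2) were assigned to PCAT1-207 and PCAT1-229, against 14.8% (148.9 reads) under the DMSO label. These transcripts share exonic bases with the protein-coding gene LRATD2 on the opposite strand, namely 1355 of the 1393 bases of PCAT1-207 and 197 of the 1309 of PCAT1-229. LRATD2 had 222, 194 and 197 CPM under the MI-503 label, against 163, 135 and 99.3 CPM under the DMSO label (log2 fold change 0.62, edgeR adjusted p = 0.0162). The strand setting of the quantification is not given in the sources used here, so reads of PCAT1-207 and of LRATD2 cannot be told apart. With both transcripts left out, the log2 fold change of PCAT1 was -5.35 (edgeR adjusted p = 1.77e-06), a choice made after seeing the data.

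**Figure D3:**
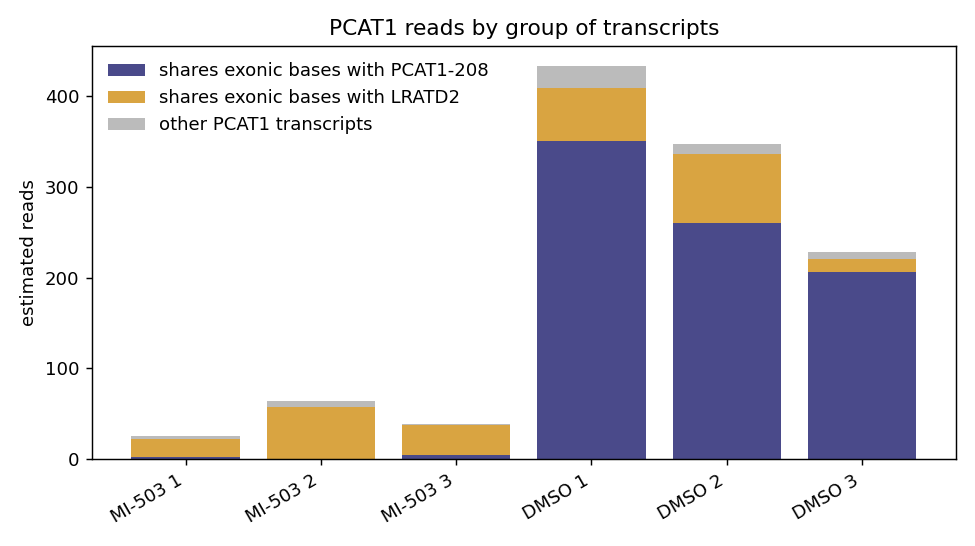
Estimated reads assigned to PCAT1 in each library, stacked by group of transcripts: those that share exonic bases with PCAT1-208, those that share exonic bases with LRATD2, and the others. Under the MI-503 label 86.0% of the reads lie on the LRATD2 group, against 14.8% under the DMSO label, where most lie on the PCAT1-208 group.

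MYC, the oncogene 316 kb to the right of PCAT1, had 19.7, 21.3 and 36.7 CPM in the libraries labelled MI-503, against 433, 359 and 227 CPM in those labelled DMSO (log2 fold change -3.71, edgeR adjusted p = 6.13e-06). POU5F1B, a retrogene within the PCAT1 body that shares 848 exonic bases with it, had 0.0487, 0.314 and 0.178 CPM under the MI-503 label, against 2.44, 0.967 and 1.05 CPM under the DMSO label (log2 fold change -3.02, edgeR adjusted p = 0.00294). TRIB1, on the other side, did not pass the test (log2 fold change -0.24, edgeR adjusted p = 0.473). Of the 23 protein-coding genes that flank or overlap the members, 7 were higher, 10 lower and 5 not past the test, and 1 was not tested. Their median log2 fold change was -0.21. Over all genes tested 31.7% were higher and 31.2% lower, so the number of higher neighbors was near that share.

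MALAT1 (ENSG00000251562), at chr11:65497640-65508073 of GRCh38, gives a long nuclear RNA that collects in nuclear speckles and ends in a triple helix in place of a poly(A) tail. MALAT1 had 1378, 619 and 510 CPM in the libraries labelled MI-503, against 166, 111 and 305 CPM in those labelled DMSO. The groups did not overlap, but both varied by more than 2-fold within themselves (log2 fold change 2.11, SE 0.44; edgeR adjusted p = 0.00198). It kept its call but fell under a log2 fold change of 2 without MI-503 replicate 1 (1.58), without DMSO replicate 2 (1.82) and with upper-quartile scaling (1.99). The log2 fold change was 2.03 (edgeR adjusted p = 2.87e-05) without the library of highest mitochondrial share under each label, a choice made after seeing the data.

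NEAT1 (ENSG00000245532), at chr11:65422774-65445540 of GRCh38, gives the architectural RNA of paraspeckles. Its short forms end in a poly(A) tail, and its long form, which builds the paraspeckle, runs on into the MALAT1 side of the locus. NEAT1 had 1505, 832 and 866 CPM in the libraries labelled MI-503, against 361, 410 and 1100 CPM in those labelled DMSO. DMSO replicate 3 lay above MI-503 replicates 2 and 3, and the difference did not pass the test (log2 fold change 0.78, SE 0.41; edgeR adjusted p = 0.125). Without DMSO replicate 3 it passed (log2 fold change 1.47, edgeR adjusted p = 0.00129). It passed also without both libraries of highest mitochondrial share (1.14, edgeR adjusted p = 0.000267) and with no filter on low counts (0.79, edgeR adjusted p = 0.00212), and over all alternatives the adjusted p ran from 0.000267 to 0.384.

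Within each label, the library with the highest mitochondrial share was also the highest for MALAT1 and for NEAT1. That was MI-503 replicate 1, with 5.34% mitochondrial reads against 3.54% and 2.84% in the other libraries labelled MI-503, and DMSO replicate 3, with 7.18% against 3.78% and 1.38% in the other libraries labelled DMSO. Among the other libraries of each label, the one with the lower mitochondrial share had the higher NEAT1 level and the lower MALAT1 level. SNHG1, a host gene of small nucleolar RNAs, was highest in the same libraries, with 209, 90.1 and 83.2 CPM under the MI-503 label, against 63.4, 66.9 and 158 CPM under the DMSO label. The part of RNA quality in these levels was not tested. MALAT1 and NEAT1 together took 16.4%, 10.0% and 9.32% of all lncRNA reads in the libraries labelled MI-503, against 3.52%, 3.54% and 8.89% in those labelled DMSO. The ratio of NEAT1 to MALAT1, in CPM, was 1.09, 1.34 and 1.70 under the MI-503 label, against 2.17, 3.69 and 3.61 under the DMSO label, with no overlap between labels. The genes lie in 1 cluster with no coding gene between them.

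**Figure D4:**
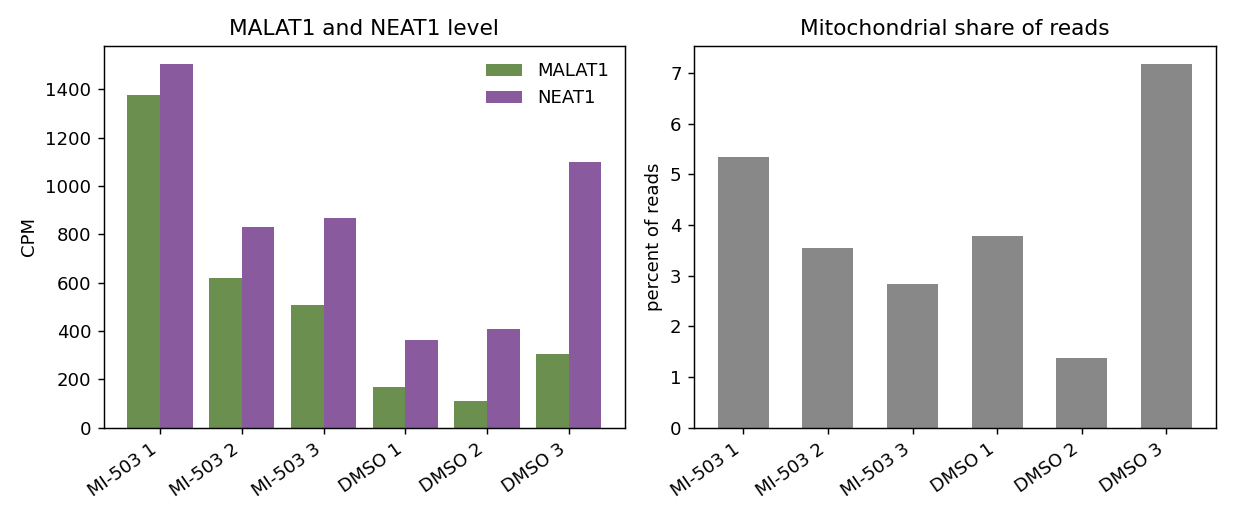
Left, CPM of MALAT1 and NEAT1 in each library, and right, the share of reads from mitochondrial genes in percent. Within the MI-503 label replicate 1 is highest in all 3 measures (1378 and 1505 CPM, 5.34%), and within the DMSO label replicate 3 is (305 and 1100 CPM, 7.18%).

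With 3 libraries against 3 an exact permutation test cannot go below p = 0.1, so no difference in the mix of MALAT1 or NEAT1 transcripts could pass it. MALAT1-214 took 27.4 ± 2.84% of the MALAT1 TPM under the MI-503 label and 34.1 ± 0.585% under the DMSO label (SD, n = 3 each; two-sided exact permutation p = 0.1; adjusted p = 0.3 over 3 shares). Its share was 24.5% to 30.1% in the libraries labelled MI-503 and 33.5% to 34.6% in those labelled DMSO, with no overlap. By estimated reads its share was 36.6%, 48.3% and 43.9% under the MI-503 label, against 49.8%, 51.6% and 56.9% under the DMSO label. MALAT1-202 held more reads than it under the MI-503 label (26519.9 against 19848.5), and fewer under the DMSO label (4813.45 against 6827.62). MALAT1-214 was quantified as an earlier version of 5340 bases, against 4227 in GENCODE 44. Of the 66 MALAT1 transcripts of GENCODE 44, 16 were analysed here, and its antisense gene TALAM1 was not analysed here. NEAT1-207, the short transcript shown above, took 63.5 ± 4.78% of the NEAT1 TPM under the MI-503 label and 64.9 ± 11.4% under the DMSO label (SD, n = 3 each; exact permutation p = 0.9). The long form NEAT1-202, of 22743 bases, took 1.89 ± 0.228% under the MI-503 label and 3.18 ± 2.54% under the DMSO label (SD, n = 3 each; exact permutation p = 0.8). The short forms lie within the long form, so salmon divides shared reads between them by estimate.

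Genes of the structures that MALAT1 and NEAT1 serve were counted against the 31.7% higher and 31.2% lower of all genes tested. Of 10 genes for speckle and MALAT1-binding proteins, 0 were higher by edgeR's test (0 also at an unadjusted p under 0.05 and by DESeq2), 7 lower and 3 not past it, with a median log2 fold change of -0.81. SRSF1, a splicing factor of speckles, had 188, 160 and 179 CPM in the libraries labelled MI-503, against 384, 383 and 483 CPM in those labelled DMSO (log2 fold change -1.25, edgeR adjusted p = 9.31e-05). METTL16, a methyltransferase that binds the MALAT1 triple helix, was lower too (log2 fold change -0.62, edgeR adjusted p = 0.00408). Of 12 paraspeckle and NEAT1 processing genes, 1 was higher, 4 lower and 7 not past the test, with a median log2 fold change of -0.37. SFPQ, a core paraspeckle protein, had 160, 151 and 153 CPM under the MI-503 label, against 416, 395 and 464 CPM under the DMSO label (log2 fold change -1.46, edgeR adjusted p = 1.57e-05). NONO, its partner, had a log2 fold change of -0.77 (edgeR adjusted p = 0.000935).

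By TPM, which allows genes to be compared, the order of the members differed between labels. Under the MI-503 label NEAT1 averaged 412 TPM (597, 311 and 327), MALAT1 330 TPM (471, 319 and 201) and DSCAM-AS1 206 TPM (168, 231 and 220), and the libraries of neighbors in this order overlapped. HOTAIR followed with 18.1 TPM, PCAT1 with 2.77, DRAIC with 0.627 and ARLNC1 with 0.113 TPM, while SCHLAP1, PCAT14 and PCGEM1 were at 0. Under the DMSO label NEAT1 averaged 250 TPM (121, 161 and 467) and MALAT1 84.9 TPM (70.4, 44.9 and 139), again with overlap. PCAT1 at 15.0 TPM, DRAIC at 11.9, SCHLAP1 at 6.55 and ARLNC1 at 5.62 TPM formed a group in which each overlapped the next. PCAT14 (0.401 TPM), DSCAM-AS1 (0.139), HOTAIR (0.105) and PCGEM1 (0.0352) came last. Among all 17596 lncRNA genes, DSCAM-AS1 ranked 14 under the MI-503 label and 4407 under the DMSO label, HOTAIR 122 and 4753, PCAT1 861 and 196, and DRAIC 2140 and 258. Most of these genes had no reads. Only 4665, 4562 and 4268 had reads in the libraries labelled MI-503, and 5189, 4973 and 4982 in those labelled DMSO. DSCAM-AS1 and HOTAIR had 6 and 5 reads in all under the DMSO label, so their ranks there lie near the floor.

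Other lncRNAs linked to the same lineages were counted by the same fit. In it 31.7% of all genes tested were higher and 31.2% lower, and of lncRNA genes tested 20.6% were higher and 37.9% lower. Of 13 further prostate-linked lncRNAs in the files, 1 was higher, 4 lower and 1 not past the test, and 7 were not tested, with a median log2 fold change of -2.23 over those tested. PCA3, a transcript used in urine tests for prostate cancer, had no reads in the libraries labelled MI-503, against 1.99, 2.27 and 0.683 CPM in those labelled DMSO, at least 30.9-fold lower (edgeR adjusted p = 0.000431). SOCS2-AS1, an androgen-induced antisense RNA, had 0.0974, 0 and 0 CPM under the MI-503 label, against 1.90, 1.35 and 0.637 CPM under the DMSO label (edgeR adjusted p = 0.00075). PCAT6 went the other way, with 5.99, 6.27 and 4.75 CPM under the MI-503 label, against 2.35, 3.53 and 1.55 CPM under the DMSO label (log2 fold change 1.20, edgeR adjusted p = 0.0158).

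Of 10 further breast-linked lncRNAs, 4 were higher, 0 were lower by edgeR's test (0 also at an unadjusted p under 0.05 and by DESeq2), 2 did not pass the test and 4 were not tested. Their median log2 fold change was 5.19 over those tested, or 4.94 with MAPT-AS1 at its bound. The shares over all genes tested were 31.7% higher and 31.2% lower, and over lncRNA genes 20.6% and 37.9%. GATA3-AS1, the divergent partner of GATA3, had 75.6, 63.6 and 90.8 CPM in the libraries labelled MI-503, against 0, 0.145 and 0 CPM in those labelled DMSO (edgeR adjusted p = 1.15e-07). LINC00885 had 12.6, 19.9 and 20.9 CPM under the MI-503 label, against 0.768, 0.774 and 0.592 CPM under the DMSO label (log2 fold change 4.63, edgeR adjusted p = 1.58e-06). AFAP1-AS1 and LINC00511 did not pass the test (log2 fold changes 0.01 and 0.03).

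Widely expressed lncRNAs showed no common direction. Of 14 listed, 4 were higher, 4 lower and 5 not past the test, and 1 was not tested, with a median log2 fold change of -0.03. Over all genes tested 31.7% were higher and 31.2% lower, so the list lay near the share of all genes. NORAD, which binds Pumilio proteins, was higher, with 826, 751 and 764 CPM in the libraries labelled MI-503, against 550, 405 and 314 CPM in those labelled DMSO (log2 fold change 0.88, edgeR adjusted p = 0.00403). OIP5-AS1 was higher (log2 fold change 1.33, edgeR adjusted p = 0.000257). DANCR, a host gene of small nucleolar RNAs, was lower, with 25.5, 33.7 and 29.97 CPM under the MI-503 label, against 148, 172 and 157 CPM under the DMSO label (log2 fold change -2.42, edgeR adjusted p = 1.37e-06). KCNQ1OT1, an imprinted antisense RNA, had a single read under the MI-503 label (0.0487, 0 and 0 CPM), against 10.9, 5.27 and 4.19 CPM under the DMSO label (edgeR adjusted p = 1.51e-05).

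**Figure D5:**
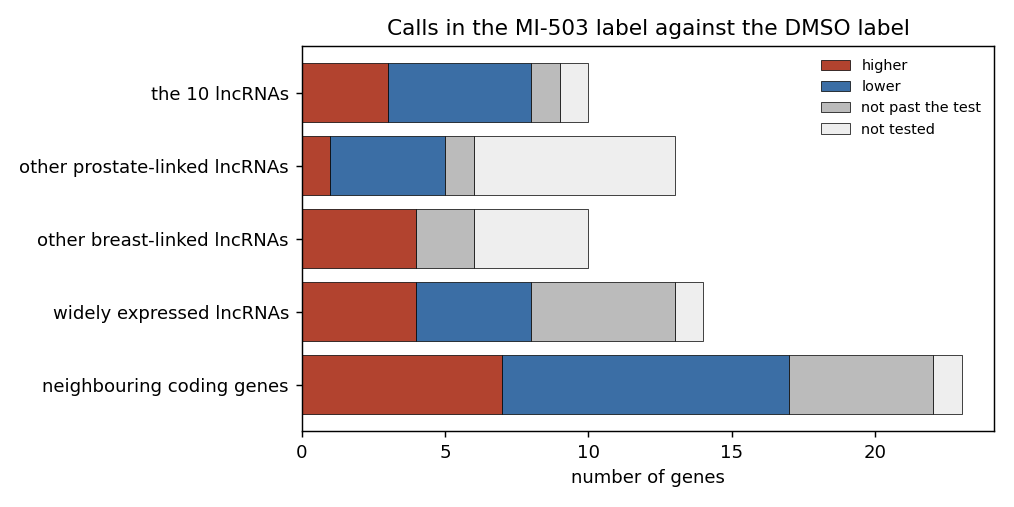
Number of genes in each list that were higher or lower under the MI-503 label, did not pass edgeR's test at an adjusted p under 0.05, or had too few reads to be tested. The 10 lncRNAs count 3 higher and 5 lower, and the breast-linked and prostate-linked lists count 4 higher with 0 lower and 1 higher with 4 lower. Over all genes tested 31.7% were higher and 31.2% lower.

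RefSeq promoter windows of GRCh38.p14, from 250 bases before to 50 bases after a start, matched 3 of the 10 members (PCGEM1, MALAT1 and DRAIC). They were searched on both strands for 4 motifs. AGAACA is only a part of the response element of the androgen and glucocorticoid receptors, and GGTCA only a part of that of the estrogen receptor. TGTTTAC is a motif of forkhead factors and AGATAA of GATA factors. AGAACA was found on the minus strand 191 bases before the PCGEM1 start and 41 bases before the second of the MALAT1 starts, a motif that 14.8% of all 35116 windows hold. The DRAIC window and the first MALAT1 window held none of the 4 motifs, which 37.4% (GGTCA), 3.4% (TGTTTAC) and 10.3% (AGATAA) of all windows hold. These matches describe the letters only.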

How the data were processed

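RNA-seq was deposited for 6 libraries, 3 labelled MI-503 and 3 labelled DMSO. The authors quantified transcripts with salmon (Illumina DRAGEN) and deposited estimated counts, without normalization, and TPM, scaled within each library by effective length. The submitters' processing notes name GRCh38.p13 and hg38. Not given in the sources used here were the salmon version, annotation release and strand setting.

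Versions were stripped from transcript names, which matched GENCODE 44 for 229321 of 232117 transcripts (98.8%) and at least 99.16% of reads. Estimated counts were summed to genes and rounded. The authors' test was DESeq2. Here edgeR 4.0.16 (R 4.3.3) was used, with TMM scaling (factors 0.934 to 1.053), filterByExpr, glmQLFit and glmQLFTest. Each SE printed is the size of the log2 fold change divided by the square root of the test's F value. It was derived from the test and not taken from the fitted coefficients. The fit was checked on simulated data in which far fewer genes changed than were called here, so that check does not cover a difference this wide. DESeq2 1.42.0 and limma 3.58.1 were alternatives. CPM are TMM-scaled. A label without reads took 3 reads over the label as its floor. Neither intervals nor floors cover more than counting error, because these reads carry no molecular identifiers. Figures add 1 CPM before the logarithm. Transcript shares were tested over libraries with scipy 1.17.1.

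The members and gene lists were chosen with earlier results of these data known. Genes were named by rule if they were members or markers, among the 4 of a list with the smallest adjusted p, overlapped a member, or led the lncRNAs by TPM or fold. All other examples were chosen after their values were seen. Results for a few listed genes and transcript sequences are not reported here.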

Additional observations from a re-analysis of the deposited data

How the results depend on the processing

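The 8 calls among the members kept their direction and their side of the threshold under every alternative in which the gene was tested (PCAT14 did not reach 1 CPM in 3 libraries). NEAT1 passed the test with no filter on low counts (log2 fold change 0.79), without DMSO replicate 3 (1.47) and without the library of highest mitochondrial share under each label (1.14), and without 1 library at a time its log2 fold change ran from 0.48 to 1.47. The cause was not tested. Over all genes the counts of higher and lower calls were 5208 and 5130, against 5595 and 5478 by DESeq2, 4827 and 5582 with upper-quartile scaling and 6173 and 5876 with no filter.

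The difference in the NEAT1-207 share, MI-503 label minus DMSO label, was -1.40 percentage points by TPM and 3.16 by estimated reads. Without 1 library it ran from -6.08 to 4.91, turning to 0.65 without MI-503 replicate 1 and to 4.91 without DMSO replicate 1. The NEAT1-202 difference of -1.29 ran from -2.20 to 0.16, which was the value without DMSO replicate 1, and was -5.74 by estimated reads. With upper-quartile scaling 0 of the paraspeckle genes were higher, and without the libraries of highest mitochondrial share 1 of the MALAT1 partner genes was, both settings chosen after seeing the data. By the lowest TPM of the 3 libraries, ranks under the DMSO label were 407 for DRAIC and 35 for MALAT1. The lowest TPM of PCGEM1 was 0, so its rank of 3713 is a tie shared by all lncRNA genes at 0.

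Same-numbered libraries did not deviate together (correlations of -0.098, 0.071 and -0.089), so the numbers were not taken as pairs. With the replicate block 5071 genes were higher and 4913 lower, the members still counted 3 higher and 5 lower, and NEAT1 had a log2 fold change of 0.92 (edgeR adjusted p = 0.093). Depth limits PCGEM1, PCAT14 and the transcript choice in DRAIC and ARLNC1.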

Other observations

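Outside the members, FAM225A and NNT-AS1 were lncRNA genes with at least 10 CPM under the MI-503 label and no reads under the DMSO label. FAM225A had 38.4, 52.2 and 60.9 CPM in the libraries labelled MI-503 and no reads in those labelled DMSO, at least 1075-fold higher (edgeR adjusted p = 4.73e-07). NNT-AS1, the antisense partner of the mitochondrial transhydrogenase gene NNT, had 20.4, 19.9 and 20.2 CPM under the MI-503 label and no reads under the DMSO label, at least 436-fold higher (edgeR adjusted p = 6.93e-07). In the other direction, LINC01123 had no reads in the libraries labelled MI-503, against 21.3, 19.0 and 25.7 CPM in those labelled DMSO, at least 415-fold lower (edgeR adjusted p = 1.01e-06).

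The lncRNA genes of highest TPM were shared between labels in part. GAS5, a growth arrest transcript that hosts small nucleolar RNAs, ranked second of all lncRNA genes under the MI-503 label with 597 TPM and 4th under the DMSO label with 359 TPM. SNHG29 led under the DMSO label with 882 TPM and ranked 9th under the MI-503 label with 391 TPM.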
